A study of Homo sapiens with 12 samples.

Results

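The respiratory chain is the set of 5 protein complexes in the inner mitochondrial membrane that pass electrons from NADH and succinate to oxygen and use the resulting proton gradient to make ATP. It is built from the products of 2 genomes: the mitochondrial DNA encodes 13 core subunits, and all other subunits, with all of complex II, come from the nucleus and are imported. Human mitochondrial DNA is transcribed from both strands as long precursors that are then cut, whereas each nuclear gene has its own promoter. Counts were taken per gene, so each of the 13 mitochondrial genes is called an mRNA below. This holds also where 2 overlapping genes may lie on 1 molecule. Here 59 respiratory chain genes, of 55765 genes in the deposited count tables, were examined in RNA-seq of a breast cancer cell line: the 13 mitochondrial mRNAs and 46 nuclear genes, listed by name as subunits of complexes I to V. NDUFA4 is grouped with complex I after its symbol in every count and ratio given by complex, although its protein is a small subunit found with complex IV. The nuclear genes comprised 20 of complex I (NADH dehydrogenase), 4 of complex II (succinate dehydrogenase), 7 of complex III (cytochrome bc1), 7 of complex IV (cytochrome c oxidase) and 8 of complex V (ATP synthase). The mitochondrial mRNAs encode 7 subunits of complex I, 1 of complex III, 3 of complex IV and 2 of complex V.

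The cells were Hs 578T, a line from a triple-negative breast carcinoma that is labelled as an epithelial tumor line. They had been transduced with lentivirus to express either GFP (GFP cells, the control) or full-length NRF2 (NRF2 cells). In these cells NRF2 is the product of NFE2L2, a transcription factor of the oxidative stress response; it should not be confused with NRF1 (nuclear respiratory factor 1) or with GABPA, an ETS family factor once also called nuclear respiratory factor 2, which are classical regulators of respiratory chain genes. Both kinds of cell were kept for 8 h in medium with 0.8 mM cystine (Cyss) or in the same medium without Cyss, which gave 4 groups of 3 libraries: GFP with Cyss, GFP without Cyss, NRF2 with Cyss and NRF2 without Cyss. Nothing states whether the 3 libraries of a group came from separate cultures or which clones the transduced cells represent, so p-values measure the spread between these libraries, which may be technical.

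The 12 libraries held 27250993 to 44596870 reads on genes after rRNA genes were left out. The exogenous gene followed the labels: NFE2L2 read 3834, 3662 and 3860.4 normalized counts in the GFP libraries with Cyss and 6567, 6599 and 6924 in the NRF2 libraries with Cyss (log2FC 0.84 ± 0.04 SE, adjusted p = 4.58e-10). Without Cyss it read 4682, 4598 and 4489 in GFP cells and 7258, 8113 and 8448 in NRF2 cells (log2FC 0.79 ± 0.05 SE, adjusted p = 6.38e-06). Of 10 epithelial markers, only KRT8 and KRT18 exceeded 100 normalized counts in any library, and EPCAM, a defining marker, stayed between 0 and 1.02. All 8 mesenchymal markers, which include vimentin and fibronectin, were expressed. KRT18 read 769 to 1469 normalized counts over the libraries and KRT8 150 to 235. The markers were thus mixed and do not settle the epithelial label. Replicate 1 of the NRF2 group without Cyss stood apart from its group: 7.84% of its reads lay outside annotated genes, against 5.82% to 6.69% in the 11 other libraries, and its counts and those of replicate 3 differed most of all pairs within a group. Main results are also given without it where that changed them. In bulk RNA, fewer cells of a kind and less RNA per cell cannot be told apart.

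Normalized counts below are on a TMM scale over all 12 libraries. A gene "passed" where its edgeR quasi-likelihood p, adjusted over all tested genes, was under 0.1, and it was called a differentially expressed gene (DEG) where its log2FC also exceeded 0.32 in either direction. All 59 members passed the filter on low counts in every fit, and the lowest group mean was 149 normalized counts, for NDUFV2 in the NRF2 group without Cyss.

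The promoter windows of the nuclear genes were searched for short elements after the fits of their levels had been run. RefSeq promoter windows on GRCh38.p14, each with 250 bases before and a short stretch after the gene's start, were at hand for 37 of the 46 nuclear members. The search covered both strands for the YY1 element AAGATGGCG, the ETS element CCGGAAG, to which GABPA binds, the NRF1 element GCATGCGC and the antioxidant response element TGACNNNGC, through which NRF2 acts. Matches were allowed to overlap each other. The YY1 element lay in 8 of 37 members (21.6%) against 1.75% of all 35116 windows, the ETS element in 13 (35.1%) against 10.3%, and the NRF1 element in 9 (24.3%) against 3.05%. The antioxidant response element lay in 6 of 37 (16.2%) against 13.3% of all windows, and its stricter form TGACTCAGC lay in none, against 0.561%. At least 1 of the YY1, ETS and NRF1 elements lay in 21 of 37 members (56.8%) against 14% of all windows. Those windows were not limited to genes expressed in these cells, so the shares do not compare the members with other expressed genes. Only these letters were searched, with N as any base, so variant forms of an element were not counted. A match of letters is a description and not a binding site. To show what such windows look like, the 250 bases before the start are given for the member of each complex that lay lowest in NRF2 cells against GFP cells without Cyss, among those with a single listed window that could be shown, with matches to the YY1, ETS and NRF1 elements in capitals.
NDUFA12: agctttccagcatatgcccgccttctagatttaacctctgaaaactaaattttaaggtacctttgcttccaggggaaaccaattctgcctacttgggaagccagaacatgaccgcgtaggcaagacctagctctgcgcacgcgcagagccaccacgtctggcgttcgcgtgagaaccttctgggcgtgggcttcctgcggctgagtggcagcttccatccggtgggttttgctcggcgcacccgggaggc
SDHD: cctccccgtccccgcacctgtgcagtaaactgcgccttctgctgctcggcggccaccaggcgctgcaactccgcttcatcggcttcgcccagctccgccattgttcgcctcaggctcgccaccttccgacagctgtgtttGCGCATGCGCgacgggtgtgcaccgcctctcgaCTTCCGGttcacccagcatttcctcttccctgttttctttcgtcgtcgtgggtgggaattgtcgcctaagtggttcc
UQCRQ: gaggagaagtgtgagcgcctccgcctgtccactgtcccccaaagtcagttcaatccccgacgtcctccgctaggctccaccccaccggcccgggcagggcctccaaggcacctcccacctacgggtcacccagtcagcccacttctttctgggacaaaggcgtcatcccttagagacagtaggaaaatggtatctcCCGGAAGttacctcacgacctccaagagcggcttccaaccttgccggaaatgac
COX7C: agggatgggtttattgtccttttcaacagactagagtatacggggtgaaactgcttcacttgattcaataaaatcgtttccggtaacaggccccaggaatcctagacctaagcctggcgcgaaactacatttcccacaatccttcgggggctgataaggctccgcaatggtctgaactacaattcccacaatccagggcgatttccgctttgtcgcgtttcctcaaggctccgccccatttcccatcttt
ATP5H: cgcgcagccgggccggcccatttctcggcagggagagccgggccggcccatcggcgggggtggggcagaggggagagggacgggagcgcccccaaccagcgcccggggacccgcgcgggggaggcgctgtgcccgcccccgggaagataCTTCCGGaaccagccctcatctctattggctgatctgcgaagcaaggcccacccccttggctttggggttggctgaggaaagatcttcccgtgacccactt
These windows lie at chr12:95003698-95003947, minus strand (NDUFA12, complex I), chr11:112086623-112086872, plus strand (SDHD, complex II), chr5:132866392-132866641, plus strand (UQCRQ, complex III), chr5:86617691-86617940, plus strand (COX7C, complex IV) and chr17:75046970-75047219, minus strand (ATP5H, complex V). SDHD carried overlapping NRF1 matches on both strands and, nearer the start, an ETS match. UQCRQ and ATP5H each carried 1 ETS match. The bases shown for NDUFA12 and COX7C carried no exact match to these letters, and variant letters were not searched.

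The mitochondrial mRNAs far exceeded the nuclear ones. Per kilobase of transcript, the 13 mitochondrial mRNAs of GFP cells with Cyss ranged from 19736 normalized counts per kb for MT-ND1 to 143650 for MT-CO2. The highest nuclear member was ATP5B, the catalytic beta subunit of ATP synthase, at 13043 normalized counts per kb, which is below the lowest mitochondrial mRNA. The lowest was NDUFA9 at 75.9, although the length of 8356 bases used for it is that of the annotation's chosen transcript and may understate its level. The large mitochondrial rRNA, MT-RNR2, was left out with the other rRNA genes and took 0.281% to 0.342% of reads on genes. Together the 13 mRNAs took 1.86% to 2.27% of reads on genes, and the 46 nuclear genes 0.371% to 0.463%.

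These levels carry limits that come from the compact mitochondrial DNA. MT-ATP8 and MT-ATP6 overlap by 46 bases at chrM:8527-8572 on GRCh37, plus strand, which is 22.2% of MT-ATP8. A read that lies wholly inside this stretch cannot be given to 1 of them. The shared stretch is shown with the start codon of MT-ATP6 in capitals.
MT-ATP8 and MT-ATP6: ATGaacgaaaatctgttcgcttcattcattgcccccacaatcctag
MT-ND4L and MT-ND4 share 7 bases. The genes of each overlapping pair were counted and tested apart, so their log2FC values need not stand for separate molecules. MT-ND6 lies on the opposite strand to the 12 others, and reads were counted without regard to strand. The count tables also list 7 of 12 searched nuclear copies of mitochondrial genes, whose near-identical sequence can take or lose reads. Of these, MTND4P12, a copy of MT-ND4, read 702, 706 and 731 normalized counts in NRF2 cells with Cyss and 946, 918 and 805 without Cyss (log2FC 0.32 ± 0.07 SE, adjusted p = 0.00464). MTND6P4, a copy of MT-ND6, read 865, 1098 and 1005 and 1470.5, 1146 and 1055. Summed over the 7 copies, the level was 1634 to 1847 normalized counts in NRF2 cells with Cyss and 1916 to 2497 without Cyss. Their part in the values of the genes they resemble was not tested.

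In GFP cells, 8 h without Cyss moved none of the 59 genes past the threshold. Over all genes tested, 3.11% passed as higher, 2.81% as lower and 2.1% were DEGs. The median log2FC was 0.07 over the 13 mitochondrial mRNAs and 0.03 over the 46 nuclear members, beside 0.0015 over all 17452 genes. At an unadjusted p under 0.05, 3 members were higher and 0 lower, and DESeq2 called 1 mitochondrial mRNA higher. The largest differences were MT-CO2, a subunit of cytochrome c oxidase, at 93471, 94785 and 106515 normalized counts with Cyss and 114583, 107064 and 103836 without (log2FC 0.15 ± 0.05 SE, adjusted p = 0.128), and MT-CYB, the cytochrome b of complex III (log2FC 0.13 ± 0.04 SE, adjusted p = 0.108). Without replicate 3 of the GFP group with Cyss, 3 mitochondrial mRNAs passed as higher. Among nuclear members, SDHA, the flavoprotein of succinate dehydrogenase, read 4740.1, 4935 and 4737 with Cyss and 4783, 4793 and 4724 without, a log2FC of -0.01 with a 95% interval of -0.09 to 0.07.

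In NRF2 cells the same deprivation separated the genomes. All 13 mitochondrial mRNAs passed as higher and 6 of them were DEGs, whereas 26 of the 46 nuclear members passed as lower, 0 as higher and 0 reached the DEG threshold. Over all genes, 15.2% passed as higher, 13.8% as lower and 11.9% were DEGs. The median log2FC was 0.28 for the mitochondrial mRNAs and -0.14 for the nuclear members, beside -0.012 over all 17266 genes tested.

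**Figure D1:**
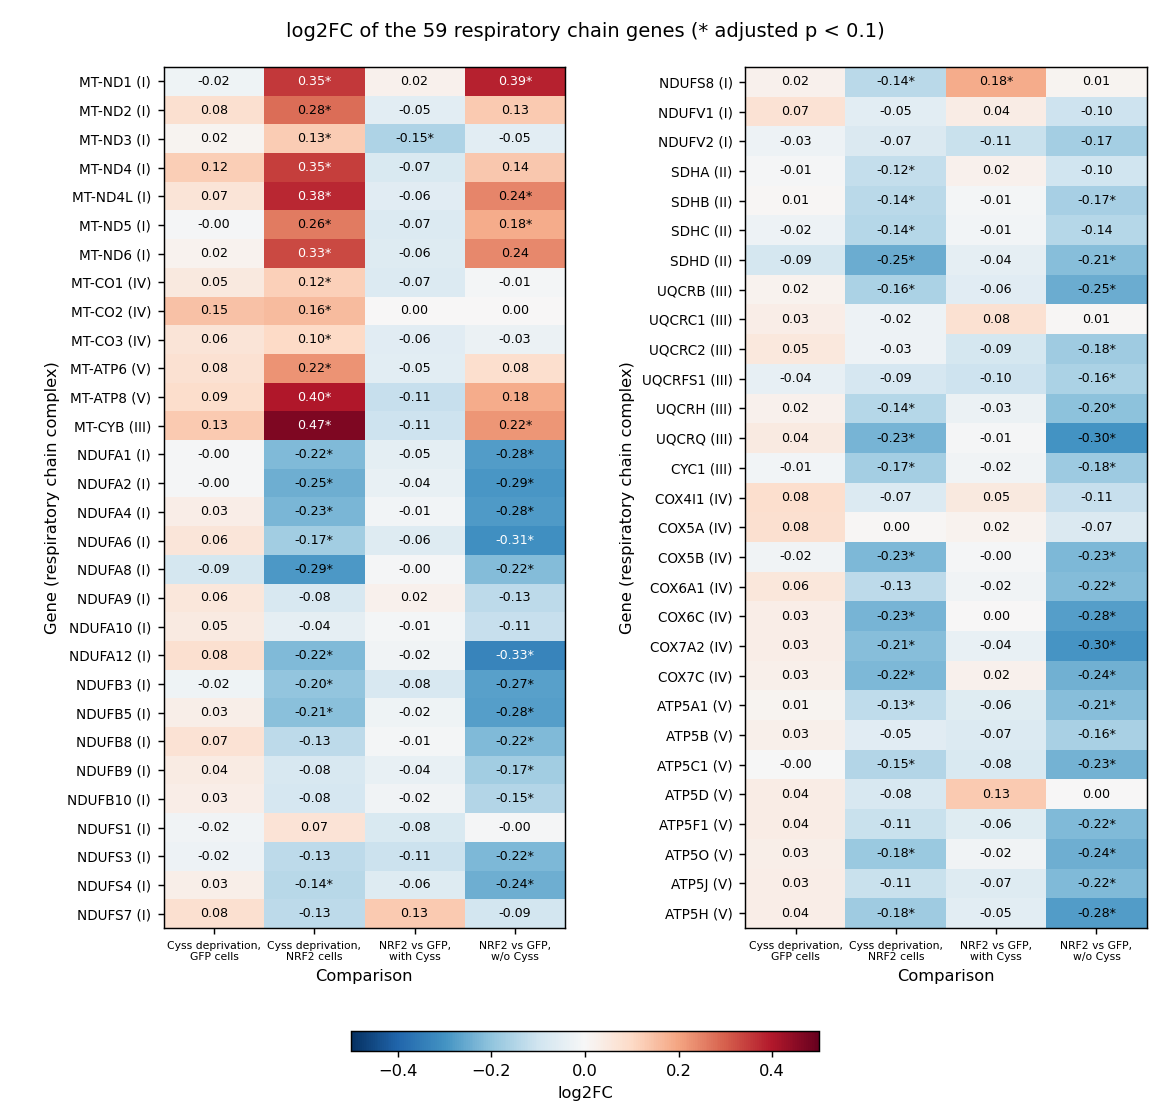
log2FC of the 59 respiratory chain genes (rows, with the complex in parentheses) in the 4 comparisons (columns). Colour and printed number give the log2FC and an asterisk marks adjusted p under 0.1. In the second column all 13 mitochondrial mRNAs are positive and 44 of 46 nuclear genes are negative.

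MT-CYB showed the largest rise. It lies at chrM:14747-15887 on GRCh37 and, like all mitochondrial genes, has no intron. Its libraries read 22667, 23140.1 and 23229 normalized counts with Cyss and 34492, 31471 and 29259 without (log2FC 0.47 ± 0.06 SE, adjusted p = 3.77e-05), with no overlap between the groups. MT-ATP8, a small subunit of the membrane part of ATP synthase, read 14277, 17054 and 14719.8 and 23264, 21074 and 16172 (log2FC 0.40 ± 0.10 SE, adjusted p = 0.0134). Its groups overlapped, since replicate 3 without Cyss lay below replicate 2 with Cyss.

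The mRNAs of complex I, whose mitochondrial subunits form its proton-pumping membrane arm, rose by unequal amounts. MT-ND4L read 22012, 19574 and 18319.6 with Cyss and 27796, 26175 and 23602 without (log2FC 0.38 ± 0.07 SE, adjusted p = 0.00159). MT-ND1, at chrM:3307-4262, read 18574, 19136 and 19204 and 27889.9, 23027 and 21499 (log2FC 0.35 ± 0.08 SE, adjusted p = 0.0044). MT-ND4, at chrM:10760-12137, read 113947, 119193 and 116321 and 155339, 154145 and 133200.0 (log2FC 0.35 ± 0.06 SE, adjusted p = 0.000683). In all 3 genes every library without Cyss lay above every library with Cyss. MT-ND6, on the other strand, read 9217, 10797 and 10455 and 15303, 12110.5 and 10783 (log2FC 0.33 ± 0.10 SE, adjusted p = 0.0291), and there replicate 3 without Cyss overlapped the libraries with Cyss. Without replicate 1 of NRF2 without Cyss, the library that stood apart, the log2FC was 0.17 for MT-ND6 (adjusted p = 0.0504) and 0.23 for MT-ND1 (adjusted p = 0.000546). MT-ND6 did not pass without replicate 1 of NRF2 with Cyss (log2FC 0.27, adjusted p = 0.134). MT-ND2 (0.28) and MT-ND5 (0.26) passed with smaller log2FC, and MT-ND3 had the smallest of this complex (log2FC 0.13 ± 0.04 SE, adjusted p = 0.0488).

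The mRNAs of cytochrome c oxidase, the terminal enzyme that reduces oxygen, rose by less than the median of the 13. MT-CO1 read 110090.0, 111912 and 111347 with Cyss and 116962, 124807 and 119822 without (log2FC 0.12 ± 0.04 SE, adjusted p = 0.0522). MT-CO2 (log2FC 0.16 ± 0.05 SE, adjusted p = 0.0486) and MT-CO3 (log2FC 0.10 ± 0.04 SE, adjusted p = 0.0998) passed too, the latter only narrowly. MT-ATP6, the proton channel subunit of ATP synthase, had a larger rise (log2FC 0.22 ± 0.06 SE, adjusted p = 0.0149). MT-CO1, MT-CO2, MT-CO3 and MT-ND3 each did not pass in 3 or 4 of the 6 fits that left out 1 library, and without replicate 2 of NRF2 without Cyss the log2FC of MT-CO2 was 0.10 (adjusted p = 0.248). The 13 log2FC values thus spanned 0.10 to 0.47, with the 3 oxidase mRNAs and MT-ND3 at the lower end.

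**Figure D2:**
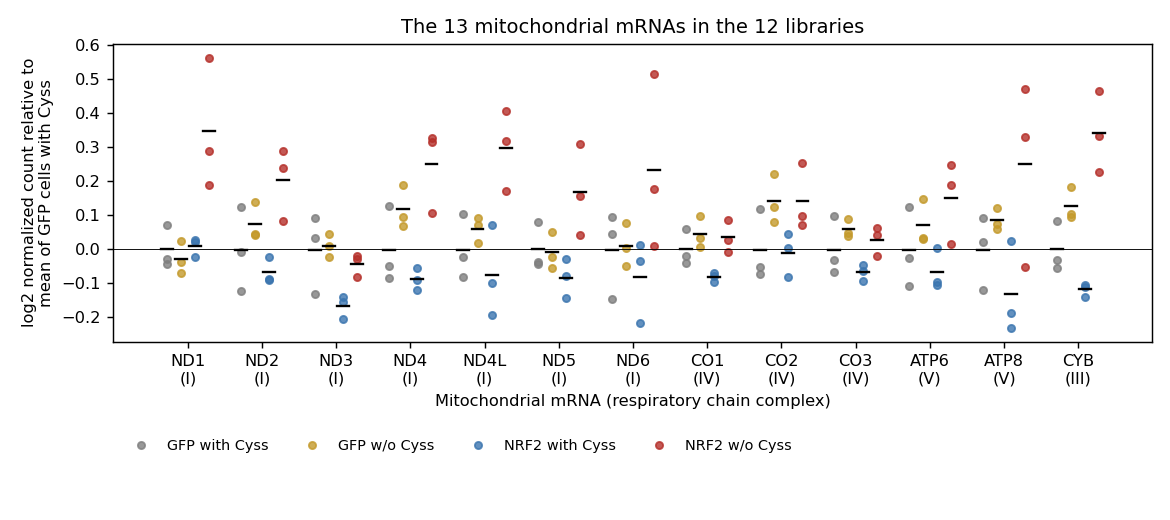
log2 normalized count of each mitochondrial mRNA in each of the 12 libraries (points), relative to the mean of GFP cells with Cyss, with a bar at each group's mean. The complex is in parentheses. In MT-CYB the 3 NRF2 libraries without Cyss lie above every other library, while in MT-CO1 and MT-CO3 the groups lie close together.

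The call for the mitochondrial mRNAs kept its direction when each library was left out, but its count did not stay at 13. It was 8 without replicate 1 of NRF2 with Cyss, 10 without its replicate 2 and 9 without its replicate 3. Without replicate 2 of NRF2 without Cyss it was 10, and without its replicate 1 or replicate 3 it was 13. Scaling to library size alone gave 9 mitochondrial mRNAs as higher and 35 nuclear members as lower. Under that scaling 1850 of all genes passed as higher and 4031 as lower, against 2633 and 2379 with TMM, and their median log2FC was -0.07.

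Among the nuclear members of complex I, 10 of 20 passed as lower. NDUFA8, an accessory subunit of the intermembrane space face, at chr9:124906337-124922058, read 974, 963 and 929 normalized counts with Cyss and 721, 743 and 877 without (log2FC -0.29 ± 0.07 SE, adjusted p = 0.00743). NDUFA2, an accessory subunit, read 856, 866 and 854 and 671, 701 and 797 (log2FC -0.25 ± 0.06 SE, adjusted p = 0.0138). In both, every library without Cyss lay below every library with Cyss. NDUFS1, the largest of the core subunits that carry the flavin and iron-sulfur clusters, read 4934, 4936 and 4788 with Cyss and 5168, 5092 and 5081 without (log2FC 0.07 ± 0.04 SE, adjusted p = 0.291), so that its libraries did not overlap but it did not pass. NDUFV1, the NADH-binding subunit, had a log2FC of -0.05 (adjusted p = 0.475) and NDUFS7 of -0.13 (adjusted p = 0.182). NDUFS8, another iron-sulfur subunit, did pass as lower (log2FC -0.14 ± 0.05 SE, adjusted p = 0.0837), though in only 2 of the 6 fits that left out 1 library.

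All 4 genes of complex II passed as lower, and this complex has no mitochondrial subunit. SDHD, a membrane anchor, at chr11:111957548-111990739, read 1272, 1299.7 and 1209.8 with Cyss and 1003, 1092 and 1084 without (log2FC -0.25 ± 0.06 SE, adjusted p = 0.00497). SDHB, the iron-sulfur subunit, read 3139, 3088 and 3189.6 and 2652, 2864 and 3041 (log2FC -0.14 ± 0.05 SE, adjusted p = 0.0656), and SDHA read 4734, 4836 and 4923 and 4364, 4360.5 and 4605 (log2FC -0.12 ± 0.04 SE, adjusted p = 0.0678). In each of these the groups did not overlap, and over all 4 genes the change ran from -7.82% to -15.8%. SDHB did not pass without the replicate 1 that stood apart (log2FC -0.09, adjusted p = 0.161), and SDHB and SDHA passed in only 1 and 2 of the 6 fits that left out 1 library.

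In complex III, 4 of 7 nuclear members passed as lower. UQCRQ, a small accessory subunit, read 2201, 2140.2 and 2051 with Cyss and 1648, 1761 and 2014 without (log2FC -0.23 ± 0.06 SE, adjusted p = 0.0137). CYC1, the cytochrome c1, read 6367, 5904 and 6364 and 4981, 5429 and 6147 (log2FC -0.17 ± 0.06 SE, adjusted p = 0.0613), with overlap. UQCRC2, a core protein, had a log2FC of -0.03 (adjusted p = 0.776), and UQCRFS1, the Rieske iron-sulfur protein, of -0.09 (adjusted p = 0.335). Of the complex IV genes, 4 of 7 passed as lower, among them COX5B (log2FC -0.23 ± 0.06 SE, adjusted p = 0.0131) and COX6C, which read 4653, 4632 and 4635 with Cyss and 3506, 3939 and 4397 without (log2FC -0.23 ± 0.06 SE, adjusted p = 0.013). COX4I1, the common isoform of subunit 4, had -0.07 (adjusted p = 0.379) and COX5A 0.00 (adjusted p = 0.966). Of the complex V genes, 4 of 8 passed as lower, among them ATP5A1, the alpha subunit (log2FC -0.13 ± 0.05 SE, adjusted p = 0.0697). ATP5B read 21203, 21751 and 22111 with Cyss and 18775, 21235 and 22519.8 without (log2FC -0.05 ± 0.05 SE, adjusted p = 0.504), and its groups overlapped. Without the replicate 1 that stood apart, CYC1 (log2FC -0.11, adjusted p = 0.154) and ATP5A1 (log2FC -0.08, adjusted p = 0.155) did not pass, and they passed in 2 and 1 of the 6 fits that left out 1 library.

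The nuclear count depended on single libraries and on transcript length. It fell from 26 to 15, 12 and 12 without replicate 1, 2 or 3 of NRF2 with Cyss, and to 14 and 17 without replicate 1 or 2 of NRF2 without Cyss, and it was 33 without replicate 3. The nuclear members have short mRNAs, with a median of 944.5 bases, and short mRNAs as a whole lay lower: among other genes the median log2FC was -0.09 under 1 kb (18.2% passed as lower) and 0.05 over 4 kb (10.9%). Among the 24 nuclear members under 1 kb, 14 passed as lower, with a median of -0.14, and among the 6 over 4 kb, 3 did, with a median of -0.10. With a smooth trend over length taken out of each library, 13 nuclear members passed as lower and all 13 mitochondrial mRNAs, which are short too (median 784 bases), passed as higher. Both the length classes and this trend use the annotation's chosen transcripts, such as 8459 bases for UQCRB and 5761 for ATP5A1. Whether these cells express those transcripts was not checked, so the class over 4 kb and the count after the offset are uncertain. The part of length in the nuclear result was not tested further.

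With Cyss present, NRF2 cells and GFP cells differed little in these genes. MT-ND3 passed as lower, NDUFS8 passed as higher, and 0 of 59 were DEGs, where 4.15% of all genes passed as higher, 2.28% as lower and 1.56% were DEGs. MT-ND3 read 11572, 10328 and 12049 normalized counts in GFP cells and 9804, 10270.3 and 10166 in NRF2 cells (log2FC -0.15 ± 0.05 SE, adjusted p = 0.0828). NDUFS8, at chr11:67798084-67804111, read 1855, 2030.3 and 1904 and 2312, 2061 and 2153 (log2FC 0.18 ± 0.05 SE, adjusted p = 0.0539). In both genes the groups did not overlap, but neither call held without replicate 1 or replicate 3 of NRF2 with Cyss, nor without replicate 3 of GFP with Cyss, where 0 mitochondrial members were lower and 0 nuclear members higher. MT-ND3 also did not pass without replicate 2 of NRF2 with Cyss (adjusted p = 0.137). Without replicate 1 or replicate 2 of GFP with Cyss, 2 mitochondrial mRNAs passed as lower, and without replicate 1 so did 1 nuclear member. The median log2FC was -0.06 for the mitochondrial mRNAs and -0.02 for the nuclear members, beside -0.0039 over all 17449 genes.

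Without Cyss, NRF2 cells had less nuclear respiratory chain mRNA than GFP cells. Of 46 nuclear members 33 passed as lower and 0 as higher, with a median log2FC of -0.22, and 4 of 13 mitochondrial mRNAs passed as higher, with a median of 0.14. Over all 17297 genes the median was -0.02, 14% passed as higher, 14.7% as lower and 10.1% were DEGs. Scaled to library size alone, 3 mitochondrial mRNAs passed as higher and 39 nuclear members as lower, with 1995 and 3424 of all genes in place of 2425 and 2551. This comparison shares the NRF2 libraries without Cyss with the deprivation of NRF2 cells above, so the values of the 2 comparisons are not independent.

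The 4 mitochondrial mRNAs were MT-ND1 (log2FC 0.39 ± 0.08 SE, adjusted p = 0.00782), MT-ND4L (log2FC 0.24 ± 0.06 SE, adjusted p = 0.0177), MT-CYB (log2FC 0.22 ± 0.06 SE, adjusted p = 0.0278) and MT-ND5 (log2FC 0.18 ± 0.07 SE, adjusted p = 0.0697). MT-ND1, the only DEG among them, read 19169.5, 17981 and 18378 in GFP cells and 27889.9, 23027 and 21499 in NRF2 cells, with no overlap. MT-CYB read 28337, 26657 and 26844 and 34492, 31471 and 29259, again with no overlap. The oxidase mRNAs lay near 0, at -0.01 for MT-CO1, 0.00 for MT-CO2 and -0.03 for MT-CO3, with adjusted p of 0.894, 0.998 and 0.636. Without the replicate 1 that stood apart, MT-ND5 did not pass (log2FC 0.11, adjusted p = 0.128), and it passed in only 1 of the 6 fits that left out 1 library. MT-CYB did not pass without replicate 2 of GFP without Cyss (log2FC 0.20, adjusted p = 0.122). The count of 4 became 9 without replicate 3 of NRF2 without Cyss and 2 without replicate 2 of GFP without Cyss.

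By complex, 13 of 20 nuclear members of complex I, 2 of 4 of complex II, 6 of 7 of complex III, 5 of 7 of complex IV and 7 of 8 of complex V passed as lower. NDUFA12, an accessory subunit of complex I at chr12:95289073-95397524, was the only nuclear DEG, with 1103, 1023 and 975 normalized counts in GFP cells and 776, 816 and 873 in NRF2 cells (log2FC -0.33 ± 0.06 SE, adjusted p = 0.00397). NDUFA6 read 2261, 2354 and 2111 and 1738, 1812 and 1883 (log2FC -0.31 ± 0.05 SE, adjusted p = 0.00221). Both genes were lower in each of the 3 NRF2 libraries than in any GFP library without Cyss.

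UQCRQ of complex III, at chr5:132202322-132204539, read 2126, 2287 and 2253 and 1648, 1761 and 2014 (log2FC -0.30 ± 0.06 SE, adjusted p = 0.0079). COX7A2 of complex IV, at chr6:75947391-75960039, read 1938, 2008 and 1859 and 1373, 1559 and 1796 (log2FC -0.30 ± 0.07 SE, adjusted p = 0.0159). ATP5H, a peripheral stalk subunit of complex V at chr17:73034958-73043080, read 1911, 2015 and 1837 and 1415, 1671 and 1669 (log2FC -0.28 ± 0.06 SE, adjusted p = 0.0104). Each of the 3 was lower in every NRF2 library than in every GFP library. A fixed list of nuclear subunits was also followed by name. Among them, SDHB (log2FC -0.17 ± 0.05 SE, adjusted p = 0.0362), UQCRC2 (log2FC -0.18 ± 0.06 SE, adjusted p = 0.0422), UQCRFS1 (log2FC -0.16 ± 0.06 SE, adjusted p = 0.0692), CYC1 (log2FC -0.18 ± 0.06 SE, adjusted p = 0.0608), ATP5A1 (log2FC -0.21 ± 0.05 SE, adjusted p = 0.00966) and ATP5B (log2FC -0.16 ± 0.05 SE, adjusted p = 0.0561) passed as lower. Without the replicate 1 that stood apart, 5 of these 6 did not pass: SDHB (log2FC -0.12, adjusted p = 0.104), UQCRC2 (log2FC -0.11, adjusted p = 0.122), UQCRFS1 (log2FC -0.10, adjusted p = 0.221), CYC1 (log2FC -0.11, adjusted p = 0.19) and ATP5B (log2FC -0.09, adjusted p = 0.132). Each of these 5 passed in 1 to 3 of the 6 fits that left out 1 library. NDUFS1 (-0.00), NDUFV1 (-0.10), NDUFS7 (-0.09), SDHA (-0.10), COX4I1 (-0.11) and COX5A (-0.07) did not pass, at adjusted p of 0.955, 0.14, 0.354, 0.118, 0.143 and 0.442.

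**Figure D3:**
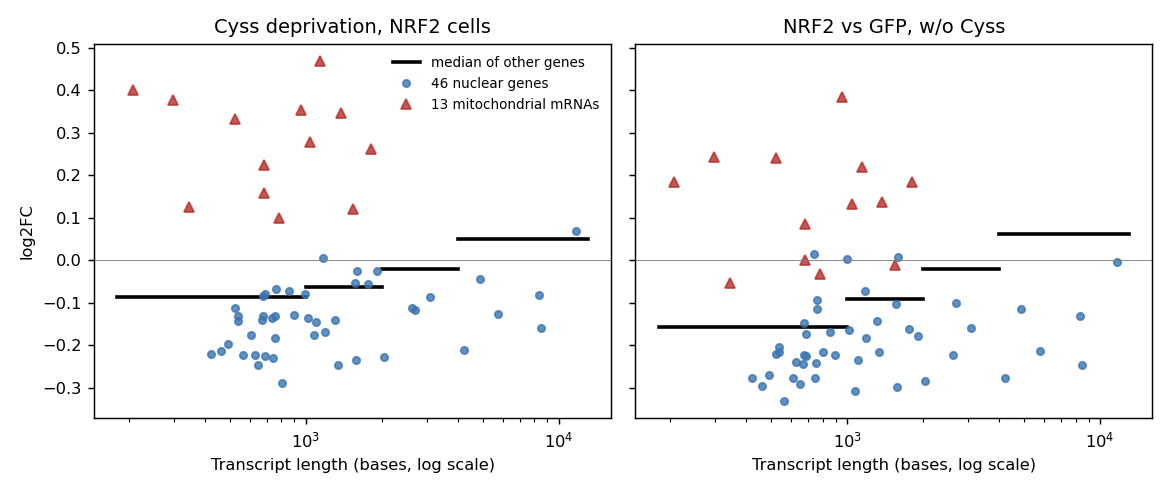
log2FC (vertical) against transcript length in bases (horizontal, log scale) for the 46 nuclear genes (circles) and the 13 mitochondrial mRNAs (triangles) in 2 comparisons. Black lines give the median of the other genes under 1, 1 to 2, 2 to 4 and over 4 kb, which runs from -0.16 under 1 kb to 0.06 over 4 kb in the right panel.

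Length moved with this result as well. Among other genes under 1 kb, 28.9% passed as lower and the median log2FC was -0.16, and over 4 kb 7.52% passed as lower and the median was 0.06. Of the 24 nuclear members under 1 kb 19 passed as lower (median -0.22), and of the 6 over 4 kb 3 did (median -0.17), by the same unchecked transcript lengths. With the length trend taken out, 17 nuclear members passed as lower, 1 as higher and 9 mitochondrial mRNAs as higher. With length and GC content both taken out, 9 nuclear members passed as lower and all 13 mitochondrial mRNAs as higher. NDUFB5, an accessory subunit of complex I listed with a long transcript, had a log2FC of -0.30 with the length trend removed (adjusted p = 0.00161). That of NDUFA1, with a short one, went from -0.28 to -0.11 (adjusted p = 0.129). The trend rose with length, so taking it out lowers long transcripts and raises short ones. This contrast therefore does not tell which of these genes changed. The count of 33 became 22 without the replicate 1 that stood apart, 20 without replicate 2 of GFP without Cyss, and 22 to 37 without any 1 of the 4 other libraries. Of the 26 members with a promoter window that passed as lower, 11 held the ETS, 8 the NRF1 and 5 the YY1 element, and of the 11 others with a window 2, 1 and 3 did. These counts were not tested.

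Whether Cyss deprivation moved these genes by different amounts in the 2 cell types was tested with an interaction term. Of the 59 genes, 4 mitochondrial mRNAs passed with a response more positive in NRF2 cells and 13 nuclear members with one more negative, where 8.97% and 6.13% of all genes did. The median interaction was 0.22 for the mitochondrial mRNAs and -0.16 for the nuclear members, beside -0.013 over all 17674 genes. MT-ND1 read 18499.9, 18284 and 19820.3 in the fed GFP libraries and 19169.5, 17981 and 18378 in the deprived ones, and its interaction was 0.38 (adjusted p = 0.0243). MT-CYB, which was higher without Cyss in every library of both cell types, still had an interaction of 0.34 (adjusted p = 0.0111). MT-ND4L (0.31) and MT-ND5 (0.27) were the other two. The interaction of MT-CO2 was 0.01 with a 95% interval of -0.16 to 0.18.

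Among nuclear members the interaction was most negative for NDUFA12 (-0.30, adjusted p = 0.0296), UQCRQ (-0.28, adjusted p = 0.0411), COX6C (-0.26, adjusted p = 0.032) and NDUFA4 (-0.26, adjusted p = 0.0934). The 13 nuclear members comprised 6 of complex I, 1 of complex III, 4 of complex IV and 2 of complex V. These counts were unstable: leaving out single libraries gave 2 to 9 mitochondrial and 3 to 29 nuclear members, with the highest values without replicate 3 of NRF2 without Cyss and 3 nuclear members without replicate 2 of GFP without Cyss. Without replicate 1 of NRF2 without Cyss, which stood apart, 4 nuclear members passed, the interaction of MT-ND1 was 0.25 (adjusted p = 0.0144) and that of NDUFA4 -0.17 (adjusted p = 0.178). NDUFA4 passed in 2 of the 12 fits that left out 1 library, and MT-ND4L and MT-ND5 in 8 each. UQCRQ did not pass without replicate 2 of GFP without Cyss (log2FC -0.26, adjusted p = 0.113). Scaled to library size alone, 27 did, with 1124 and 1979 of all genes in place of 1585 and 1084.

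The balance between the genomes can be read within a library, where no scaling between libraries enters. Reads on the 13 mitochondrial mRNAs per read on the 46 nuclear genes were 4.38, 4.09 and 4.69 in GFP cells with Cyss, and 4.76, 4.40 and 4.52 without. They were 4.22, 4.43 and 4.25 in NRF2 cells with Cyss and 6.12, 5.64 and 4.79 without. The 3 NRF2 libraries without Cyss were thus the highest of all 12, although replicate 3 exceeded replicate 1 of GFP without Cyss by only a small margin. Replicate 1 of NRF2 without Cyss, which stood apart, held the highest ratio, so differences that use this group would be smaller without it. The geometric mean ratio was 27.8% higher without Cyss in NRF2 cells and, without Cyss, 20.5% higher in NRF2 cells than in GFP cells, against 4.08% for deprivation in GFP cells. The exact two-sided permutation p was 0.1 in the first and second of these, which is the smallest that 3 against 3 libraries allow, and 0.4 in the third. After Benjamini-Hochberg adjustment over 28 such tests the smallest was 0.28. With that floor none of them could have come under 0.1, so they cannot decide whether the ratios differ.

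Both parts of this ratio moved. The share of reads on the nuclear members was 0.371%, 0.396% and 0.415% in NRF2 cells without Cyss and 0.435% to 0.463% in the 9 other libraries. The share on the mitochondrial mRNAs was 2.27%, 2.23% and 1.99% in that group. It was 1.86% to 1.96% in NRF2 cells with Cyss and 1.89% to 2.16% in GFP cells. On this share the NRF2 and GFP libraries without Cyss overlapped (exact two-sided permutation p = 0.4, where 0.1 is the smallest possible). By complex, mitochondrial reads per nuclear read in NRF2 cells without Cyss were above all other libraries for complex I (9.01 to 11.9, against 7.45 to 8.76) and complex III (1.01 to 1.40, against 0.781 to 0.954), and overlapped them for complex IV (15.2 to 18.1, against 13.4 to 15.6) and complex V (1.46 to 2.04, against 1.25 to 1.51).

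**Figure D4:**
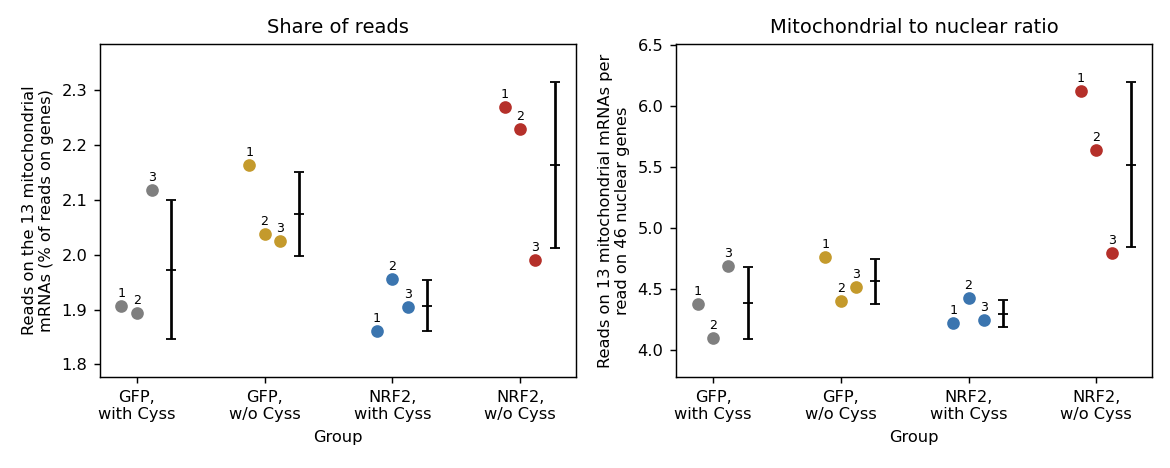
Left, reads on the 13 mitochondrial mRNAs as a percentage of reads on genes. Right, reads on them per read on the 46 nuclear genes. Points are libraries numbered by replicate, and bars at the right of each group give mean ± SD (n = 3). The NRF2 libraries without Cyss hold the 3 highest ratios, 4.79 to 6.12, while their shares of 1.99% to 2.27% overlap those of GFP cells without Cyss.

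The other genes of the pathway were taken from lists of names. Of 39 further structural subunits, 36 were tested. In NRF2 cells without against with Cyss, 20 passed as lower and 1 as higher (median log2FC -0.17), and in NRF2 against GFP cells without Cyss, 27 passed as lower and 0 as higher (median -0.22), where 13.8% and 14.7% of all genes passed as lower. In GFP cells deprived of Cyss 1 passed, and with Cyss present 1 did. Those that were DEGs and lower were NDUFB1 and NDUFC1, small subunits of complex I, and ATP5L, a subunit of the membrane part of ATP synthase. NDUFB1 read 736, 784 and 712 in NRF2 cells with Cyss and 543, 614 and 616 without (log2FC -0.33 ± 0.07 SE, adjusted p = 0.00261), and was also lower than in GFP cells without Cyss (log2FC -0.35 ± 0.07 SE, adjusted p = 0.00496). NDUFC1 (log2FC -0.34 ± 0.08 SE, adjusted p = 0.0112) and ATP5L (log2FC -0.33 ± 0.06 SE, adjusted p = 0.00333) were DEGs in the latter comparison. The interaction was most negative among the passing ones for ATP5I, another membrane subunit of ATP synthase (log2FC -0.38 ± 0.11 SE, adjusted p = 0.041).

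The exception was NDUFA4L2, a paralog of NDUFA4 known as a target of hypoxia signalling. In GFP cells it read 43.6, 42.7 and 39.5 normalized counts with Cyss and 91.6, 80.7 and 93.2 without (log2FC 1.08 ± 0.14 SE, adjusted p = 0.000436). In NRF2 cells it read 50.9, 59 and 50.3 and 82.4, 60.4 and 86.6 (log2FC 0.52 ± 0.17 SE, adjusted p = 0.0454). It was thus higher without Cyss in every library of both cell types, the opposite direction to NDUFA4 in NRF2 cells.

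Of 49 assembly factors, which build the complexes without being part of them, 45 were tested. In NRF2 cells deprived of Cyss 9 passed as lower and in NRF2 against GFP cells without Cyss 16 did, with 0 higher in either and medians of -0.09 and -0.13. Over all genes 13.8% and 14.7% passed as lower, so the first of these counts is not far from the background. SDHAF2, which adds the flavin to SDHA, read 491, 453 and 461 in NRF2 cells with Cyss and 345, 355 and 410.0 without (log2FC -0.33 ± 0.08 SE, adjusted p = 0.00645). COA3, a complex IV assembly factor, had less mRNA in NRF2 cells than in GFP cells without Cyss (log2FC -0.34 ± 0.08 SE, adjusted p = 0.00936). The interaction was a DEG-sized difference for SURF1 (log2FC -0.34 ± 0.10 SE, adjusted p = 0.0481) and COX20 (log2FC -0.49 ± 0.15 SE, adjusted p = 0.0498), which also serve complex IV assembly.

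Of 30 factors that copy and express mitochondrial DNA, all tested, 7 passed as higher and 5 as lower in NRF2 cells deprived of Cyss, and 2 and 6 in NRF2 against GFP cells without Cyss. Over all genes 15.2% and 13.8% did in the first comparison and 14% and 14.7% in the second, so the list lies near the background. C10orf2, which encodes the mitochondrial DNA helicase Twinkle, read 699, 752 and 731 in NRF2 cells with Cyss and 897, 1013 and 1063 without (log2FC 0.45 ± 0.07 SE, adjusted p = 0.000159). TFAM, which packages mitochondrial DNA and starts its transcription, read 1538, 1524 and 1443 and 1642, 1779 and 1617 (log2FC 0.17 ± 0.06 SE, adjusted p = 0.0457). Every library without Cyss lay above every library with Cyss for both genes.

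The mitochondrial RNA polymerase POLRMT read 1392, 1209 and 1262 with Cyss and 1290.0, 1269.7 and 1343 without in NRF2 cells (log2FC 0.02 ± 0.06 SE, adjusted p = 0.853). TFB2M, the initiation factor that works with it, had log2FC 0.16 ± 0.07 SE, adjusted p = 0.0902, with overlap. TFB1M, which methylates the small mitochondrial rRNA, read 204, 218 and 215 in GFP cells with Cyss and 251, 284 and 267 without (log2FC 0.33 ± 0.08 SE, adjusted p = 0.0396). In NRF2 cells it read 218, 205 and 203 and 193, 207 and 227 (log2FC 0.00 ± 0.09 SE, adjusted p = 0.981), and without Cyss its level in NRF2 cells was below that in GFP cells (log2FC -0.35 ± 0.09 SE, adjusted p = 0.0202).

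Of 9 regulators of mitochondrial biogenesis 8 were tested, and 4 of them passed as higher in NRF2 against GFP cells without Cyss, where 14% of all genes did. PPARA, a nuclear receptor of fatty acid oxidation, read 1189.7, 1130.0 and 1236 in GFP cells with Cyss and 935, 911 and 960.3 without (log2FC -0.34 ± 0.05 SE, adjusted p = 0.00232), and 1317, 1250.2 and 1204 and 1248, 1213 and 1264 in NRF2 cells. Its difference between NRF2 and GFP cells without Cyss (log2FC 0.41 ± 0.05 SE, adjusted p = 0.000546) stood beside a lower level in GFP cells. PPARGC1B, a coactivator, read 151, 171 and 145 in GFP and 221, 173 and 197 in NRF2 cells without Cyss (log2FC 0.34 ± 0.12 SE, adjusted p = 0.0592). GABPA read 735, 752 and 728 and 956, 1069 and 740.4 (log2FC 0.32 ± 0.11 SE, adjusted p = 0.054), with overlap because of replicate 3. NRF1 read 842, 904 and 929.6 and 794, 850.2 and 871 (log2FC -0.09 ± 0.06 SE, adjusted p = 0.336). PPARGC1A, the best known coactivator of mitochondrial biogenesis, was too low to be tested, at no more than 3.64 normalized counts in any library.

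Of the marker lists, KRT18 moved with Cyss deprivation. The summed level of the 10 epithelial markers was 974 to 1074 normalized counts in NRF2 cells with Cyss and 1335 to 1629 without, nearly all of it KRT18 and KRT8, and 1138 to 1281 and 1370 to 1702 in GFP cells. The 8 mesenchymal markers had 3 higher and 2 lower in NRF2 cells deprived of Cyss, and ZEB1 was the DEG among them (log2FC 0.37 ± 0.04 SE, adjusted p = 1.26e-05). The 4 leukocyte markers summed to at most 90.8 normalized counts in any library, with CD3E at 0 throughout, and the 2 endothelial markers listed in the files to at most 7.67. The part of these markers in the respiratory chain values was not tested.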

How the data were processed

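RNA was sequenced from 12 Hs 578T libraries, 4 groups of 3, grouped by their labels. The authors aligned single-end reads to hg19 with TopHat2 2.1.0 and deposited whole-number counts per gene from HTSeq 0.11.2, counted without regard to strand, with reads of more than 1 location not counted. Whether hg19's own mitochondrial sequence was used is not given in the sources used here. The deposited files still hold rRNA genes, which the authors left out after counting. Likewise, HTSeq counters and 523 genes named as rRNA were left out here, and 55242 genes remained.

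Genes whose TMM-normalized count averaged 10 or more in 1 of the groups compared were tested with edgeR 4.0.16 (glmQLFit and glmQLFTest, R 4.3.3) on the libraries of each comparison, and the interaction on all 12, with Benjamini-Hochberg adjustment over all genes tested. Standard errors are the log2FC divided by the square root of F, and intervals use the t distribution with the fit's degrees of freedom. DESeq2 1.42.0, other scalings and filters, a replicate block, leaving out each library, and, chosen after seeing the data, offsets for transcript length and GC content were tried. The fit was tested on simulated data. Lengths and GRCh37 positions come from the canonical transcripts of GENCODE, which cover 82.4% to 83.0% of tested genes.

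The members and lists were chosen with earlier results of these data known. Named by rule were the mitochondrial mRNAs, the up to 4 nuclear members with the largest passing log2FC in each direction, 12 fixed nuclear subunits, the up to 4 DEGs with the largest log2FC of each list and a few fixed regulators. COX5B, COX6C, COX7C, ATP5H, NDUFA1, NDUFA4, NDUFB5, the nuclear copies and the markers were named after their values were seen. The old symbols ATP5A1, ATP5B, ATP5H, ATP5I and ATP5L are kept as in the files.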

Additional observations from a re-analysis of the deposited data

Results flagged for a closer look

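For 17 members the response to Cyss deprivation differed between NRF2 and GFP cells by the interaction term of the edgeR fit. Groups of 3 libraries are too small for a test of single outlying libraries. Of complex I, the interaction was 0.38 for MT-ND1, 0.31 for MT-ND4L and 0.27 for MT-ND5, and of complex III it was 0.34 for MT-CYB, all more positive in NRF2 cells. Among nuclear members grouped with complex I by symbol it was -0.22 for NDUFA1, -0.24 for NDUFA2, -0.26 for NDUFA4, -0.23 for NDUFA6, -0.30 for NDUFA12 and -0.24 for NDUFB5. It was -0.28 for UQCRQ of complex III. In complex IV it was -0.21 for COX5B, -0.26 for COX6C, -0.25 for COX7A2 and -0.25 for COX7C. In complex V it was -0.21 for ATP5O and -0.21 for ATP5H. In the 12 fits that each left out 1 library, MT-ND1, MT-CYB, NDUFA12, NDUFB5 and COX6C passed in all 12, UQCRQ in 11, MT-ND4L and MT-ND5 in 8, COX7C in 6, and the 8 others in 2 to 4.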

How the results depend on the processing

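Over all comparisons, 45 passing calls of members named by rule were refitted. They were kept in 724 of 850 refits and lost in 126, and 0 changed direction. Passing members outside that rule are not in this tally, so it does not give the stability of all calls. The cause of the changes below was not tested, except that leaving out a library leaves fewer samples. No pairing of libraries by replicate number is stated. The deviations of libraries with the same number correlated at -0.184 to 0.25, which with 3 libraries per group cannot decide whether they are paired. With a replicate block, 1 mitochondrial mRNA passed as higher in GFP cells deprived of Cyss in place of 0, and 8 in place of 4 in NRF2 against GFP cells without Cyss.

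For deprivation of GFP cells, the count of mitochondrial mRNAs that were higher was 1 by DESeq2, 3 without a filter on low counts, 3 with the GC offset and 0 to 3 with 1 library left out. The nuclear median of 0.03 became -0.0096 with the length offset and -0.0051 with both offsets. For deprivation of NRF2 cells, 6 mitochondrial mRNAs passed the DEG threshold and 8 to 13 passed with 1 library left out. Nuclear members that were lower numbered 13 with the length offset, 15 with both, 17 at adjusted p under 0.05, 0 at the DEG threshold and 12 to 33 with 1 library left out.

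For NRF2 against GFP cells with Cyss, the 1 mitochondrial mRNA that was lower became 4 without a filter, 0 with the GC offset, with both offsets, in the fit of all 12 libraries, at adjusted p under 0.05 and at the DEG threshold, and 0 to 2 with 1 library left out. The 1 nuclear member that was higher became 0 with the GC offset, both offsets, adjusted p under 0.05 and the DEG threshold, and 0 to 1 with 1 library left out. Nuclear members that were lower numbered 2 with the GC offset, 3 with both and 0 to 1 with 1 library left out. The nuclear median of -0.02 ran from -0.051 to -0.0055 with 1 library left out.

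For NRF2 against GFP cells without Cyss, mitochondrial mRNAs that were higher numbered 8 without a filter, 9 with the length offset, 7 with the GC offset, 13 with both, 7 in the fit of all 12 libraries, 1 at the DEG threshold and 2 to 9 with 1 library left out. Nuclear members that were higher numbered 1 with the length offset and 1 with both. Those that were lower numbered 17 with the length offset, 9 with both, 1 at the DEG threshold and 20 to 37 with 1 library left out. The mitochondrial median became 0.26 and 0.30, and the nuclear one -0.097 and -0.071, with the length offset and with both.

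For the interaction, mitochondrial mRNAs that were higher numbered 8 without a filter, 10 with the length offset, 12 with both, 2 at the DEG threshold and 2 to 9 with 1 library left out. Nuclear members that were lower numbered 27 by library size, 8 without a filter, 5 with the length offset, 7 with both, 4 at adjusted p under 0.05, 0 at the DEG threshold and 3 to 29 with 1 library left out. The medians became 0.33 and 0.32, for the mitochondrial mRNAs and -0.060 and -0.059 for the nuclear members, with the length offset and with both. Per read in the file, in place of per read on genes, the mean mitochondrial share was 1.65% in GFP cells with Cyss, 1.73% without, 1.59% in NRF2 cells with Cyss and 1.80% without.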

Other observations

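Of 18 genes for mobile electron carriers and ubiquinone synthesis, ubiquinone being the lipid that carries electrons to complex III, 6 passed as lower and 1 as higher in NRF2 against GFP cells without Cyss, with a median log2FC of -0.09. In NRF2 cells deprived of Cyss, 4 passed as lower and 2 as higher, with a median of -0.01. Of all genes 14.7% passed as lower and 14% as higher in the first comparison, and 13.8% and 15.2% in the second, near the shares of this list in the second. COQ3, a methyltransferase of ubiquinone synthesis, read 393, 381 and 357 normalized counts in NRF2 cells with Cyss and 259.7, 307 and 294 without (log2FC -0.39 ± 0.08 SE, adjusted p = 0.00339). COQ10A, which binds ubiquinone, read 155, 167 and 182 and 128, 124 and 138 (log2FC -0.37 ± 0.11 SE, adjusted p = 0.0241), and its interaction was also negative (log2FC -0.47 ± 0.13 SE, adjusted p = 0.0379). Its paralog COQ10B read 1312, 1337 and 1245 and 1415, 1489.6 and 1499 (log2FC 0.18 ± 0.05 SE, adjusted p = 0.0218). COQ3 and COQ10A were thus lower, and COQ10B higher, in every NRF2 library without Cyss than in every one with Cyss.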
